A study of Mus musculus with 4 samples.

Results

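The transcripts described here are 40 genes known mainly from macrophages, read in 4 RNA-Seq libraries of group 2 innate lymphoid cells (ILC2s) sorted from bronchoalveolar lavage (BAL) fluid of mice. The members are a list of gene symbols, no expression value enters the rule, and all 40 had a row among the 24537 genes of the expression tables. They comprise 9 genes of alveolar macrophages, 10 genes of monocyte-derived or interstitial macrophages, 9 surface receptors that macrophages share, 3 signalling adaptors and transcription factors, 6 lysozymes, lysosomal and killing proteins, and 3 secreted chemokines and resistin-like proteins. Both groups of mice were GATA3 IRES Reporter (GATIR) mice on a C57BL/6 background, 8 to 16 weeks old, with YFP made from the *Gata3* transcript. In the IL-33 group, mice received 3 doses of 0.5 µg IL-33, an epithelial alarmin, on alternate days. In the chronic HDM group, mice received 25 µg of house dust mite (HDM) extract 3 times a week for 5 weeks. BAL fluid cells were sorted 1 day after the last dose as Lineage-Sca-1+YFP+ cells, and 2 libraries were made per group. The lineage antibodies of that gate included CD11b, CD11c and Gr-1, which mark myeloid cells. The sample labels give the IL-33 mice as Gata3-YFP/YFP and CD25 high and the HDM mice as Gata3-YFP/WT and CD25 low, whereas the methods describe homozygous mice alone and no CD25 gate, so genotype, gate and treatment cannot be told apart. Sex-linked transcripts differed between the groups too, with *Xist* at 0 and 0.014 RPKM after IL-33 against 7.62 and 10.2 RPKM after chronic HDM, and *Ddx3y* at 15.7 and 13.8 RPKM against 7.09 and 5.55 RPKM. The sex of the mice is not given in the sources used here, and what differs with it cannot be told apart from treatment either. How many mice each library holds is not given in the sources used here, and the p-values below measure only the spread between these libraries.

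Alveolar macrophages are long-lived phagocytes of the airspace that depend on GM-CSF and PPARγ and clear surfactant lipid. Monocyte-derived macrophages enter the airspace during inflammation and make osteopontin, apolipoprotein E and complement C1q. In type 2 inflammation IL-4 and IL-13 induce a program in macrophages that includes the chitinase-like protein of *Chil3*, the resistin-like protein of *Retnla* and the mannose receptor of *Mrc1*. ILC2s are lymphocytes that secrete IL-5 and IL-13 and are not phagocytes.

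Values are reads per kilobase of exon and scaled to the number of mapped reads (RPKM), as deposited. The files imply 11743273 to 13097416 mapped reads per IL-33 library and 18395523 to 19224033 per chronic HDM library, so that 3 reads on 1 kb of exon equal 0.156 to 0.255 RPKM. All 12 genes of an ILC2 list were read in every library, with summed levels of 2866 and 2819 RPKM after IL-33 against 1791 and 2098 RPKM after chronic HDM. The chronic HDM libraries stood apart in quality as well as treatment. They held 17.4% and 25.4% 45S ribosomal RNA against 3.45% and 4.95% after IL-33, and of the 9523 genes tested 588 (6.17%) had no read in HDM replicate 1 and 205 (2.15%) in HDM replicate 2, against 71 (0.746%) in each IL-33 library. The standard deviation of the log2 difference between replicates over those genes was 0.434 for IL-33 and 1.13 for chronic HDM. In bulk RNA, fewer cells of a type and less RNA per cell cannot be told apart.

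Macrophage transcripts were read in all 4 libraries, in amounts that differed between groups and between the replicates of each group. The 40 genes summed to 1644 and 474 RPKM in IL-33 replicates 1 and 2 and to 3777 and 10866 RPKM in HDM replicates 1 and 2. They took 0.261% (95% Wilson interval 0.258 to 0.264%) and 0.073% (0.071 to 0.075%) of the reads in genes after IL-33, and 0.619% (0.615 to 0.623%) and 1.8% (1.79 to 1.8%) after chronic HDM, where the intervals cover counting error only. The sum therefore differed 3.47-fold within the IL-33 pair and 2.88-fold within the HDM pair, while the lower HDM library exceeded the higher IL-33 library 2.3-fold. Without the 3 genes of highest level, *Chil3*, *Lyz2* and *Ctss*, the other 37 summed to 272, 95.04, 458 and 1870 RPKM in the same order.

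**Figure D1:**
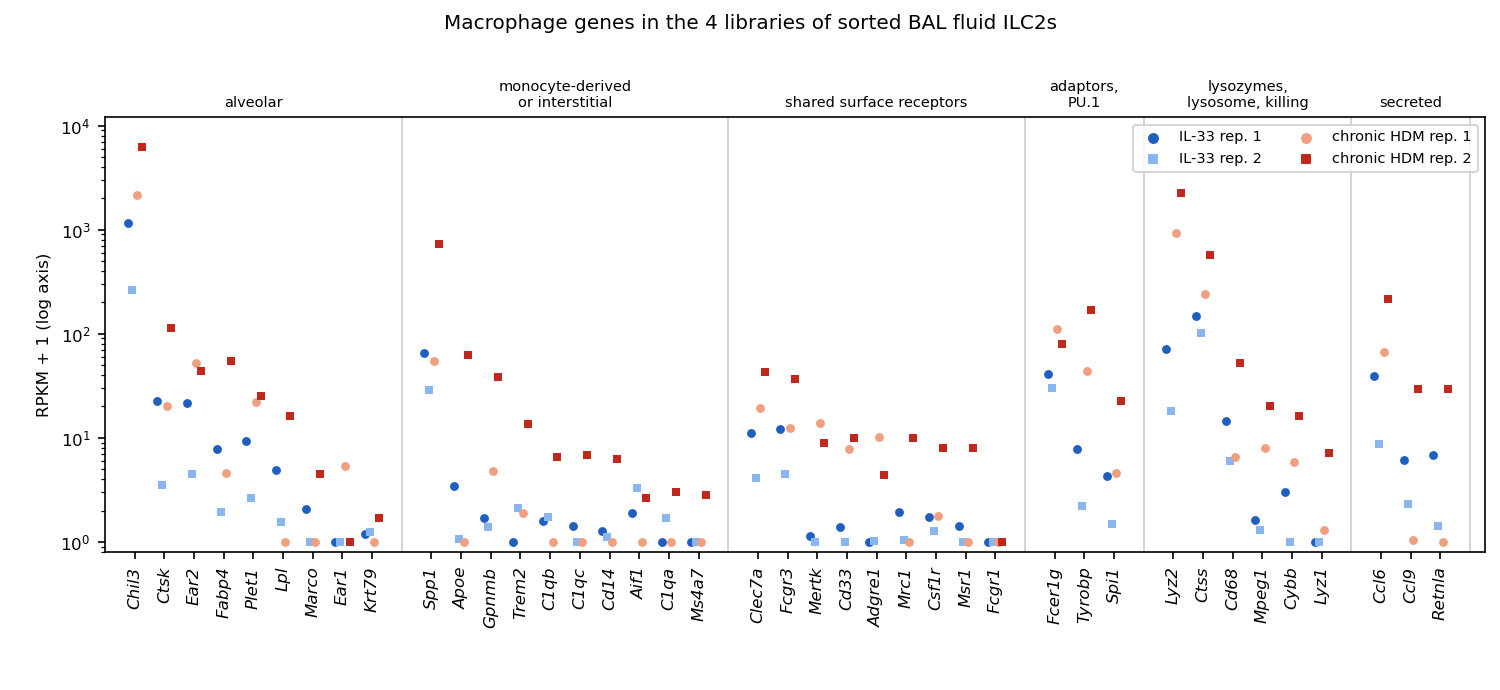
RPKM + 1 on a log axis for each of the 40 macrophage genes, grouped by role, with 1 point per library (blue, IL-33; red, chronic HDM; circles, replicate 1; squares, replicate 2). HDM replicate 2 is the highest library for 33 of the 40 genes, and *Fcgr1* lies at 0 RPKM in all 4.

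Between the groups, the question was whether these genes differed after chronic HDM and after acute IL-33. The fit with limma on log2(RPKM + 1) took genes whose mean reached 2 RPKM, 28 of the 40 members among them. A call required an adjusted p under 0.01 together with a log2 fold change above 1 in size. Their log2 fold changes, chronic HDM minus IL-33, were all above 0, from 0.54 (*Lpl*) to 5.34 (*Lyz2*), with a median of 2.15 beside −0.28 over all 9523 genes. The minimum bears on these signs: 11 of the 28 had an IL-33 mean under 2 RPKM and passed through the HDM libraries, and none passed through the IL-33 libraries alone. Of the 12 members outside the fit, *Aif1* had the higher mean after IL-33, 10 had it after chronic HDM and *Fcgr1* had no reads. The fold changes stayed above 0 under each of 3 other scalings, whereas 3 lay below 0 with a pseudocount of 0.1 and 4 with limma-voom. No member was called in either direction by limma or by limma-voom. The paper, which used DESeq2 on these libraries, named *Cd33*, *Ctss* and *Ccl6* among the genes higher after chronic HDM. From limma, 15 of the 28 had an unadjusted p under 0.05, as did 3499 of all genes. Of all genes tested, 0.536% were called higher in chronic HDM and 2.8% higher in IL-33. The lowest adjusted p of a member from limma was 0.0115 (*Lyz2*) and the highest 0.828 (*Ccl9*). The standard errors were wide, with a median of 0.85 over members and 0.41 over all genes. Both HDM libraries lay above both IL-33 libraries for 19 of the 40 members, 18 of the 28 tested, and for 23.5% of all genes tested. The groups overlapped for the other 21 members, and no member lay lower in both HDM libraries.

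The calls depended on single HDM libraries. Without HDM replicate 1, limma called 13 members higher in chronic HDM, and without HDM replicate 2 it called 6, namely *Cd33*, *Adgre1*, *Mertk*, *Fcer1g*, *Lyz2* and *Mpeg1*. Calls rose over all genes as well, to 4.04% and 6.28% of the genes tested called higher in chronic HDM in these fits. In both the remaining HDM library was assumed to vary like the IL-33 pair. The median log2 fold change of the members was 3.12 in the former fit and 1.35 in the latter, and it was 1.33 without IL-33 replicate 2.

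**Figure D2:**
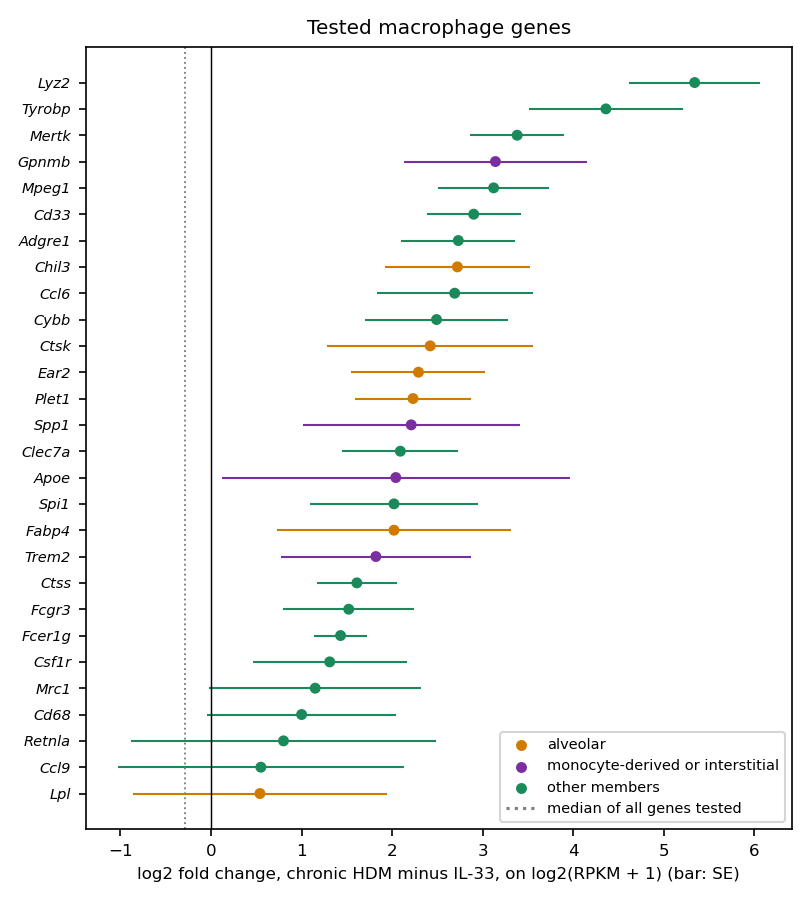
Log2 fold change (chronic HDM minus IL-33, on log2(RPKM + 1)) of the 28 tested macrophage genes, with bars of 1 standard error on each side, while the dotted line gives the median over every gene in the fit, −0.28. All 28 points lie above 0 and none was called at an adjusted p under 0.01.

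Among the alveolar genes, *Chil3*, which encodes a chitinase-like protein that macrophages secrete in abundance, was the highest member in each library (chr3:106147554-106167564, mm10). It stood at 1155 and 261 RPKM after IL-33 and at 2144 and 6162 RPKM after chronic HDM, on 4674 to 172968 reads. The means were 708 ± 633 and 4153 ± 2841 RPKM (SD, n = 2 each), and the log2 fold change was 2.72 (SE 0.80, limma adjusted p = 0.0676). Both HDM libraries exceeded both IL-33 libraries, but replicate 1 was 4.43-fold above replicate 2 within IL-33 and replicate 2 was 2.87-fold above replicate 1 within HDM. Of the 51-base windows of *Chil3*, 28.7% also occur in transcripts of other genes (*Chil4* and *Gm6522*), so a part of its reads cannot be assigned to it alone.

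*Ctsk*, the lysosomal cysteine protease cathepsin K, was read at 21.7 and 2.49 RPKM after IL-33 and at 19.3 and 111 RPKM after chronic HDM. IL-33 replicate 1 was thus above HDM replicate 1, the groups overlapped, and the log2 fold change was 2.42 (SE 1.14, limma adjusted p = 0.186). *Fabp4*, a fatty acid-binding protein that marks alveolar macrophages, was at 6.85, 0.939, 3.60 and 53.6 RPKM in the same order, again with overlap (log2 fold change 2.02, SE 1.29, limma adjusted p = 0.309). *Lpl*, lipoprotein lipase, was at 3.93 and 0.570 RPKM after IL-33, had no reads in HDM replicate 1 and reached 15.4 RPKM in HDM replicate 2, at least 397-fold above the floor of 3 reads in replicate 1. Its log2 fold change of 0.54 (SE 1.40, limma adjusted p = 0.810) was the smallest of the tested members. *Marco*, a scavenger receptor for particles and bacteria, was read in IL-33 replicate 1 (1.09 RPKM) and in HDM replicate 2 (3.51 RPKM) and had no reads in the other libraries of either pair. These lipid and uptake genes were therefore present in 1 library of each group at a level several times that of the other.

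A second pattern was seen in *Ear2*, a ribonuclease of eosinophils and alveolar macrophages, and *Plet1*, a membrane protein of alveolar macrophages. *Ear2* was at 20.6 and 3.47 RPKM after IL-33 against 51.5 and 43.0 RPKM after chronic HDM (log2 fold change 2.29, SE 0.74, limma adjusted p = 0.0853). *Plet1* was at 8.38 and 1.67 RPKM after IL-33 against 20.9 and 23.96 RPKM after chronic HDM (log2 fold change 2.23, SE 0.64, limma adjusted p = 0.0652). For both genes the HDM libraries lay together and above the IL-33 libraries, which differed 5.94-fold and 5.03-fold. *Ear1* had 59 reads in HDM replicate 1 (4.33 RPKM) and no reads elsewhere, and *Krt79*, a keratin, stayed under 1 RPKM in every library. Reads of the ribonuclease family are uncertain, since 40.7% of the windows of *Ear2* and 56.6% of those of *Ear1* recur in related genes.

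Among the monocyte-derived or interstitial genes, *Spp1*, which encodes osteopontin and is also made by activated lymphocytes, was the highest. It was read at 64.4 and 27.8 RPKM after IL-33 and at 53.9 and 732 RPKM after chronic HDM. HDM replicate 2 stood 13.6-fold above HDM replicate 1, which lay between the IL-33 libraries, and the log2 fold change was 2.21 (SE 1.20, limma adjusted p = 0.240). *Apoe*, apolipoprotein E, was at 2.44 and 0.072 RPKM after IL-33, had no reads in HDM replicate 1 and reached 61.7 RPKM on 1348 reads in HDM replicate 2, at least 470-fold above 3 reads in its partner. *Gpnmb*, a glycoprotein of lysosome-rich macrophages, was the only gene of this list with separate groups, at 0.706, 0.405, 3.79 and 37.6 RPKM (log2 fold change 3.14, SE 1.01, limma adjusted p = 0.0843). *Trem2*, the lipid receptor that signals through the adaptor of *Tyrobp*, was at 0, 1.10, 0.912 and 12.7 RPKM (log2 fold change 1.82, SE 1.05, limma adjusted p = 0.265).

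The complement genes were read in numbers too low for the fit. *C1qa*, *C1qb* and *C1qc*, the 3 chains of C1q, lie together on chromosome 4. They were at or under 0.725 RPKM after IL-33, had no reads in HDM replicate 1 and reached 2.02, 5.50 and 5.86 RPKM in HDM replicate 2, on 40, 107 and 113 reads. *Cd14*, the co-receptor for lipopolysaccharide, was at 0.276, 0.103, 0 and 5.25 RPKM. *Ms4a7*, a membrane protein of monocyte-derived macrophages, was read in HDM replicate 2 alone (1.80 RPKM, 42 reads). *Aif1*, an actin-binding protein, was at 0.883, 2.26, 0 and 1.63 RPKM and was the only member whose highest level lay in an IL-33 library. Of the 10 genes in this list, 7 had no reads in HDM replicate 1, and every one was read in HDM replicate 2. Of these 7, all but *Apoe* lay outside the fit. Over all 24537 genes, 10675 had a read in HDM replicate 1 and 12134 in HDM replicate 2.

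The receptors divided the HDM libraries in a different way. *Cd33*, an inhibitory sialic acid-binding lectin, was at 0.400 and 0 RPKM after IL-33 and at 6.78 and 8.99 RPKM after chronic HDM (log2 fold change 2.90, SE 0.52, limma adjusted p = 0.0199). *Mertk*, the receptor tyrosine kinase for the engulfment of dead cells, was at 0.130 and 0 RPKM against 12.8 and 7.88 RPKM (log2 fold change 3.38, SE 0.52, limma adjusted p = 0.0138). *Adgre1*, which encodes the F4/80 antigen of macrophages and eosinophils, had at most 1 read after IL-33 and stood at 9.25 and 3.43 RPKM after chronic HDM (log2 fold change 2.73, SE 0.63, limma adjusted p = 0.0373). For *Mertk* and *Adgre1* replicate 1 was the higher HDM library. None of the 3 passed the threshold in the fit reported here.

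The receptors for endocytosis showed the opposite order within the HDM pair. *Mrc1*, the mannose receptor CD206, was at 0.939 and 0.032 RPKM after IL-33, had no reads in HDM replicate 1 and reached 8.91 RPKM on 866 reads in HDM replicate 2, at least 302-fold above 3 reads. *Msr1*, the class A scavenger receptor, likewise had no reads in HDM replicate 1 and was at 6.91 RPKM in HDM replicate 2. HDM replicate 1 thus held 867 reads of *Mertk* and 573 of *Adgre1* beside no reads of *Mrc1*, *Msr1*, *Apoe*, *Lpl*, *Retnla* or *C1qa*, *C1qb* and *C1qc*.

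*Clec7a*, the β-glucan receptor Dectin-1, was at 10.2, 3.07, 18.2 and 42.0 RPKM (log2 fold change 2.09, SE 0.64, limma adjusted p = 0.0759). *Fcgr3*, a low-affinity IgG receptor, was at 11.2, 3.48, 11.3 and 35.4 RPKM, and its windows overlap with *Fcgr2b* at 12.6%. *Csf1r*, the receptor for the macrophage growth factor CSF1, was at 0.753, 0.287, 0.756 and 6.92 RPKM. For *Fcgr3* and *Csf1r*, HDM replicate 1 lay at the level of IL-33 replicate 1. *Fcgr1*, the high-affinity IgG receptor CD64 that is widely used to define macrophages, had no reads in any library.

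The signalling adaptors were higher in both HDM libraries. *Tyrobp*, which encodes the ITAM adaptor DAP12 of myeloid and NK cell receptors, was at 6.83 and 1.22 RPKM after IL-33 and at 42.8 and 167 RPKM after chronic HDM. Its log2 fold change of 4.36 (SE 0.85, limma adjusted p = 0.0242) was the largest after that of *Lyz2* on log2(RPKM + 1). *Fcer1g*, the Fc receptor γ chain, was at 39.8, 29.0, 111 and 78.4 RPKM, with the smallest standard error of any tested member (log2 fold change 1.43, SE 0.29, limma adjusted p = 0.0266). *Spi1*, which encodes PU.1, the transcription factor on which macrophage identity depends, was at 3.32, 0.470, 3.63 and 21.5 RPKM (log2 fold change 2.02, SE 0.93, limma adjusted p = 0.181).

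Because PU.1 binds many macrophage promoters, the promoters of the members were searched for the letters GAGGAAGT on both strands, an extended form of the GGAA core that PU.1 shares with other ETS factors. RefSeq promoters (build GRCm38.p6, 250 bases before to 50 after a start) were matched for 31 of the 40 members. The letters occurred in 4 of the 31 (12.9%) and in 997 of 27025 genes (3.69%). The 4 sites are shown as the 30 bases around the motif, which is in capitals, 5′ to 3′ on the strand that reads GAGGAAGT. They are shown because these 4 genes, of 3 roles, were the only members with a match. The motif begins 2 bases before the start of *Ctss*, 113 before that of *Spp1*, 195 before that of *C1qc* and 198 before that of *Retnla*, counted from the RefSeq start, which for *Retnla* lies further inside the gene than the start in the expression tables.
Ctss, chr3:95526773-95526802, minus strand: gcatccacaatGAGGAAGTgaactttcatt
Spp1, chr5:104434987-104435016, plus strand: caaaaccagagGAGGAAGTgtaggagcagg
C1qc, chr4:136893091-136893120, plus strand: tgtgccaaaatGAGGAAGTgtctgccgtcc
Retnla, chr16:48842400-48842429, minus strand: tcaagagacttGAGGAAGTaaacccacttc
A match of letters is not evidence of binding. *Chil3* and *Lyz2* were not among the members with a match, and members without a promoter entry could not be searched.

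Among the lysosomal and killing genes, *Lyz2*, the lysozyme of myeloid cells, had the largest log2 fold change of any tested member on log2(RPKM + 1). That rank depended on the pseudocount: at 0.1, *Mertk* (6.06) and *Adgre1* (5.68) exceeded *Lyz2* (5.38). *Lyz2* was read at 70.2 and 17.2 RPKM after IL-33 and at 933 and 2259 RPKM after chronic HDM, with means of 43.7 ± 37.5 and 1596 ± 938 RPKM (SD, n = 2 each). The log2 fold change as reported was 5.34 (SE 0.72, limma adjusted p = 0.0115), just short of the threshold of 0.01. *Lyz1*, its close copy beside it on chromosome 10, had no reads after IL-33 and was at 0.289 and 6.13 RPKM after chronic HDM. The 2 lysozyme genes share 14.8% of the windows of *Lyz2* and 15.4% of those of *Lyz1*, so the low values of *Lyz1* are uncertain.

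*Ctss*, cathepsin S, which processes the invariant chain in antigen-presenting cells, was at 147, 101, 242 and 575 RPKM (log2 fold change 1.61, SE 0.44, limma adjusted p = 0.0563). *Mpeg1*, the pore-forming protein perforin-2, was at 0.617, 0.315, 6.91 and 19.4 RPKM (log2 fold change 3.12, SE 0.61, limma adjusted p = 0.0247). *Cybb*, the catalytic subunit of the phagocyte NADPH oxidase, was at 2.02, 0, 4.88 and 15.1 RPKM (log2 fold change 2.49, SE 0.79, limma adjusted p = 0.0819). All 3 were higher in both HDM libraries than in either IL-33 library. *Cd68*, a membrane protein of lysosomes, overlapped between the groups, at 13.5 and 4.95 RPKM after IL-33 against 5.54 and 51.7 RPKM after chronic HDM.

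The secreted proteins were each highest in HDM replicate 2 and higher in IL-33 replicate 1 than in IL-33 replicate 2. *Ccl6*, a CC chemokine of macrophages and other myeloid cells, was at 38.5, 7.80, 65.8 and 216 RPKM (log2 fold change 2.69, SE 0.86, limma adjusted p = 0.0824), with separate groups. *Ccl9*, its neighbour on chromosome 11, was at 5.11 and 1.33 RPKM after IL-33, had 2 reads in HDM replicate 1 (0.035 RPKM) and 1582 reads (28.6 RPKM) in HDM replicate 2. *Retnla*, which encodes the resistin-like molecule RELMα, was at 5.80, 0.432, 0 and 28.6 RPKM. For *Ccl9* and *Retnla* the log2 fold changes of 0.55 and 0.80 were below their standard errors of 1.58 and 1.68.

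Within each replicate pair the members moved largely in 1 direction. IL-33 replicate 1 was above replicate 2 for 30 members, below it for 6 and equal for 4. HDM replicate 2 was above replicate 1 for 34 members, below it for 5 (*Ear1*, *Ear2*, *Adgre1*, *Mertk* and *Fcer1g*) and equal for *Fcgr1*. For 27 members both orders held together, and 14 followed the full order IL-33 replicate 2, IL-33 replicate 1, HDM replicate 1, HDM replicate 2. The median difference on log2(RPKM + 1) was 0.72 within IL-33 and 1.82 within HDM. Replicate numbers carry no order, and with 1 library against 1 these differences have no replicate check.

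On RPKM + 1, HDM replicate 2 was at least 4-fold above replicate 1 for 19 of the 40 members, 13 of the 28 tested, against 5.93% of all genes tested. IL-33 replicate 1 was at least 4-fold above replicate 2 for 6 members (*Chil3*, *Fabp4*, *Ear2*, *Ctsk*, *Ccl6* and *Retnla*) and for 0.221% of all genes tested, which is 21 genes including those 6. Both differences were present in *Fabp4*, *Ctsk* and *Retnla*, 3 of 7 genes in all, or 0.0735% of the genes tested. The 12 members outside the test include many of low level, for which a difference of 4-fold on RPKM + 1 is hard to reach. The minimum of 2 RPKM bears on the HDM share, since HDM replicate 2 alone can carry a gene into the test. Most of the 13 passed in this way. With no reads in HDM replicate 2, *Lpl*, *Apoe*, *Trem2*, *Gpnmb*, *Mrc1*, *Csf1r*, *Spi1*, *Ccl9* and *Retnla* would not have reached the minimum. *Apoe* and *Mrc1*, for example, had no reads in HDM replicate 1 and IL-33 means of 1.26 and 0.486 RPKM. The count of 13 is thus set in part by the minimum.

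**Figure D3:**
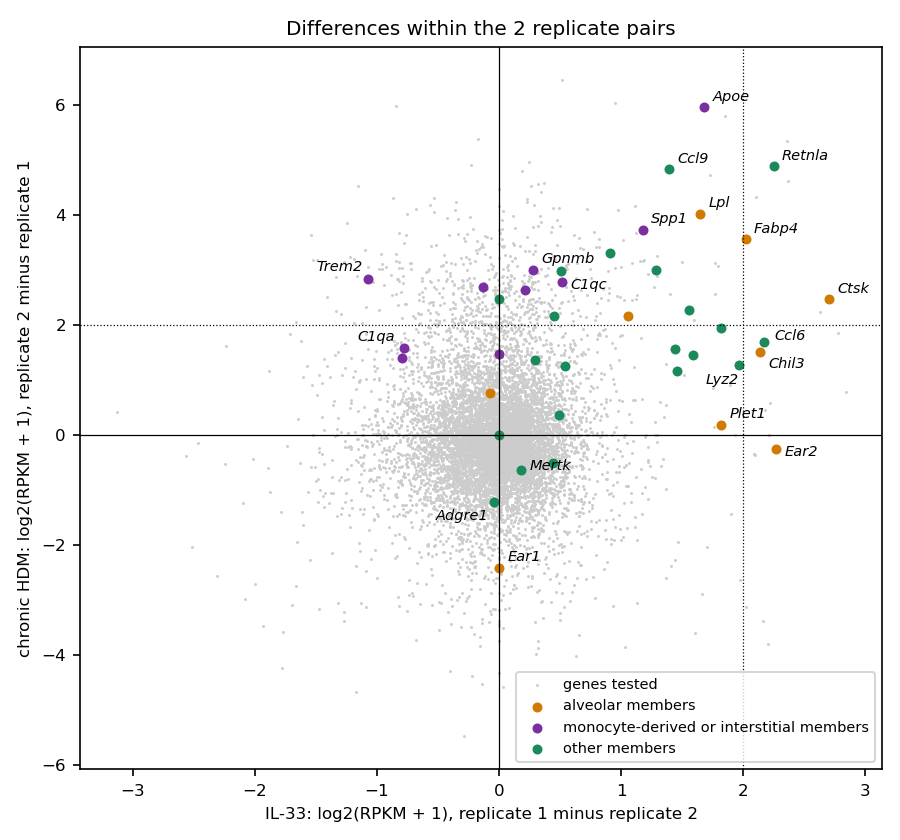
Difference between the 2 libraries of each group on log2(RPKM + 1): IL-33 replicate 1 minus replicate 2 on the horizontal axis and HDM replicate 2 minus replicate 1 on the vertical axis, for the genes tested (grey) and the 40 macrophage genes (coloured by type). Dotted lines mark 4-fold; 3 members, *Fabp4*, *Ctsk* and *Retnla*, lie past both.

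Alveolar and monocyte-derived genes were set side by side within the pairs, as a description. The 9 alveolar genes summed to 1218 and 270.2 RPKM after IL-33 and to 2244 and 6413 RPKM after chronic HDM, which is a difference of 4.51-fold within IL-33 and 2.86-fold within HDM. The 10 monocyte-derived or interstitial genes summed to 69.8 and 33.2 RPKM after IL-33 and to 58.6 and 866 RPKM after chronic HDM, a difference of 2.1-fold within IL-33 and 14.8-fold within HDM. The median difference per gene within IL-33 was 1.82 on the log2 scale for the alveolar genes and 0.11 for the monocyte-derived genes, and within HDM it was 1.52 and 2.74. Most monocyte-derived genes lay under 1 RPKM after IL-33, where log2(RPKM + 1) leaves little room for a difference, so the medians within IL-33 cannot be compared between the lists. Single genes overlapped between the lists within HDM, from −2.41 to 4.03 for the alveolar and from 1.40 to 5.97 for the monocyte-derived genes. In the lists of other alveolar and other monocyte-derived genes of the same cells, the medians within HDM were in the opposite order, 0.59 and 0.10. The difference between the lists was not tested.

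As a share of the alveolar sum, the monocyte-derived sum was 5.73% and 12.3% after IL-33 against 2.61% and 13.5% after chronic HDM. Since *Chil3* and *Spp1* dominate these sums, the shares were also taken without them. They were then 8.48% and 57.4% after IL-33 against 4.72% and 53.3% after chronic HDM. Without *Spp1* the monocyte-derived genes were at 5.32, 5.38, 4.70 and 134 RPKM, so that 3 of the libraries held nearly the same sum and HDM replicate 2 stood apart. The similar sums were made of different low genes. The leading gene was *Apoe* (2.44 RPKM) in IL-33 replicate 1 and *Aif1* (2.26 RPKM) in IL-33 replicate 2. In HDM replicate 1 it was *Gpnmb* (3.79 RPKM). Neither share separated the treatments.

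Relative to *Chil3*, some members kept a nearly constant proportion in all 4 libraries and others did not. Over the 14 members besides *Chil3* with at least 10 reads in every library, the ratio varied less than 2-fold for *Ccl6* and *Clec7a*. *Ccl6* was at 3.34% and 2.99% of the *Chil3* level after IL-33 and at 3.07% and 3.51% after chronic HDM, a 1.17-fold range while *Chil3* itself ran from 261 to 6162 RPKM. *Lyz2* was at 6.08% and 6.59% after IL-33 and at 43.5% and 36.7% after chronic HDM, so its ratio separated the groups and was close within each pair. Other ratios separated the groups too, higher after chronic HDM for *Mpeg1* and *Gpnmb* and lower for *Fcgr3*, *Cd68*, *Ctss* and *Clec7a*. *Gpnmb* ran from 0.061% in IL-33 replicate 1 to 0.610% in HDM replicate 2, and *Fcer1g* was highest in IL-33 replicate 2 (11.1%) and lowest in HDM replicate 2 (1.27%). These ratios share a denominator and are given without a test.

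**Figure D4:**
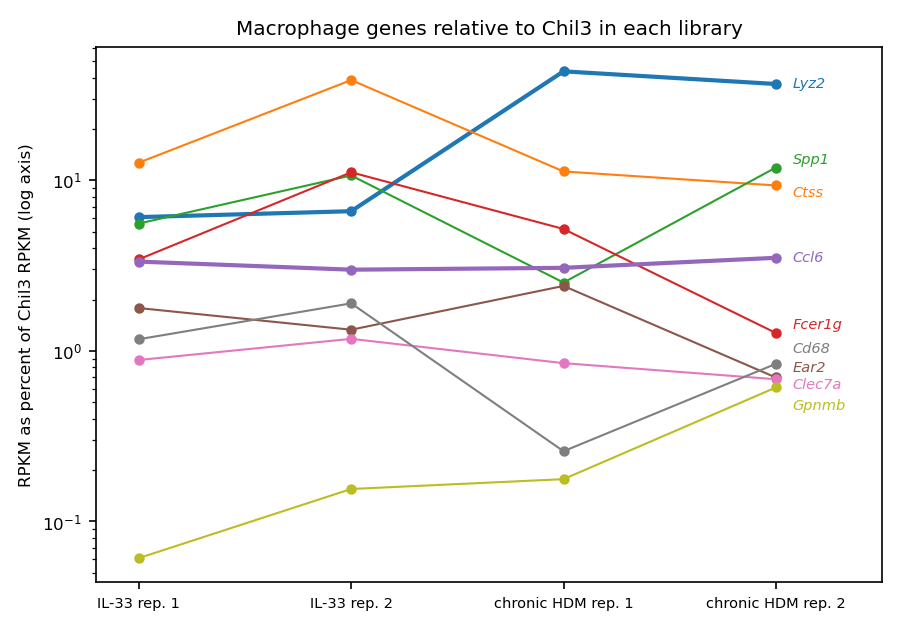
RPKM of 9 macrophage genes as a percentage of the *Chil3* RPKM in the same library, on a log axis, with lines joining the 4 libraries of each gene. *Ccl6* stays between 2.99% and 3.51%, and *Lyz2* lies at 6.08% and 6.59% after IL-33 and at 43.5% and 36.7% after chronic HDM.

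The rank order of the 40 members was compared between libraries as a description. Spearman's rho across the 40 genes was 0.82 within the IL-33 pair and 0.73 within the HDM pair, and it was highest, at 0.88, between IL-33 replicate 1 and HDM replicate 2. It was 0.65 between the replicates numbered 1. Low genes at or near 0 reads weigh on these values, and genes are not independent replicates.

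Further genes of the same cells were read from lists made beside the members. Of 15 other alveolar genes found in the files, 11 were tested, none was called by limma, and their median log2 fold change was 1.20. This list summed to 536 and 456 RPKM after IL-33 and to 275 and 385 RPKM after chronic HDM, higher in both IL-33 libraries than in both HDM libraries, unlike the members. It was dominated by *Plin2*, a lipid droplet protein, at 338, 294, 144 and 144 RPKM, and by *Pparg*, the nuclear receptor that ILC2s also express, at 142, 119, 57.8 and 40.8 RPKM. *Siglecf*, the surface lectin of alveolar macrophages and eosinophils, was read in IL-33 replicate 2 alone (0.533 RPKM). Of 18 other monocyte-derived genes, 9 were tested and none was called, with a median of 1.19. Their sums were 103, 96.3, 240.1 and 287 RPKM, led by the chemokine receptor gene *Ccr2* (36.3, 43.6, 150.2 and 88.8 RPKM) and by *Cd63* (43.6, 32.4, 33.5 and 67.9 RPKM), and *Folr2*, *Lyve1*, *F13a1* and *Mmp14* had no reads.

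Transcripts for the surface proteins of the gate and for other cells were read as follows. *Itgam* (CD11b) was at 0 RPKM in 3 libraries and 0.152 RPKM in HDM replicate 2, *Itgax* (CD11c) was at 2.56, 0.853, 3.27 and 7.18 RPKM, and *Ly6g* had no reads. The Ly6C genes *Ly6c1* (5.80, 5.66, 7.71 and 15.5 RPKM) and *Ly6c2* (0.288, 0, 6.54 and 0.068 RPKM) were read. The 5 genes of the gate summed to 8.65 and 6.51 RPKM after IL-33 against 17.5 and 22.9 RPKM after chronic HDM. Eosinophil genes, of which 7 were found, summed to 2.22 and 3.67 RPKM after IL-33 against 7.46 and 5.92 RPKM after chronic HDM, with *Epx* at 0 in all libraries. The 11 neutrophil genes summed to 0.42 and 0.57 RPKM against 14.1 and 9.17 RPKM, from *S100a8* (0.395, 0, 14.1 and 6.46 RPKM), *Retnlg* (0, 0.566, 0 and 2.71 RPKM) and *Cxcr2* alone, with *S100a9* at 0. The 10 dendritic cell genes summed to 43.6, 53.9, 56.6 and 78.8 RPKM, led by *Itgae* (12.01, 19.2, 46.7 and 70.8 RPKM) and *Batf3* (23.9, 26.1, 6.18 and 2.85 RPKM). The 9 epithelial genes summed to 16.4 and 5.52 RPKM after IL-33 and to 25.7 and 76.0 RPKM after chronic HDM. The order of this sum within HDM rested on the club cell gene *Scgb1a1*, at 64.6 RPKM in HDM replicate 2 and without reads in HDM replicate 1. *Epcam* (21.5 and 9.07 RPKM in HDM replicates 1 and 2) and *Cdh1* (4.23 and 2.35 RPKM) had the opposite order. The other genes of the list had no reads in either HDM library. The part of other cells, ribosomal RNA or genes missing from HDM replicate 1 in the differences between macrophage transcripts was not tested.

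The mast cell and basophil list summed to 52.5 and 46.1 RPKM after IL-33 and to 0 and 8.75 RPKM after chronic HDM. Its basophil protease gene *Mcpt8* was at 45.8 and 39.2 RPKM after IL-33 and had no reads after chronic HDM. It was called higher in IL-33 (limma adjusted p = 0.00665). The B cell list summed to 38.4, 27.4, 8.74 and 6.80 RPKM. The T cell list summed to 79.9, 104, 71.6 and 83.5 RPKM, of which *Cd3g* held nearly all. None of the 3 followed the order of the macrophage transcripts over the libraries. The ILC2 genes differed within pairs by −0.32 to 0.53 for IL-33 (replicate 1 minus 2) and by −0.37 to 0.77 for HDM (replicate 2 minus 1) on log2(RPKM + 1), against −1.07 to 2.70 and −2.41 to 5.97 for the macrophage genes. Between the groups, limma called *Gata3* (14.9, 18.9, 216 and 195 RPKM) and *Il1rl1* (77.3, 79.9, 217 and 205 RPKM) higher in chronic HDM. It called *Il2ra* (432, 376, 27.6 and 22.0 RPKM) and *Il5* (738, 626, 151 and 145 RPKM) higher in IL-33. Opposite differences of this kind are not seen in the ILC2 sum.

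**Figure D5:**
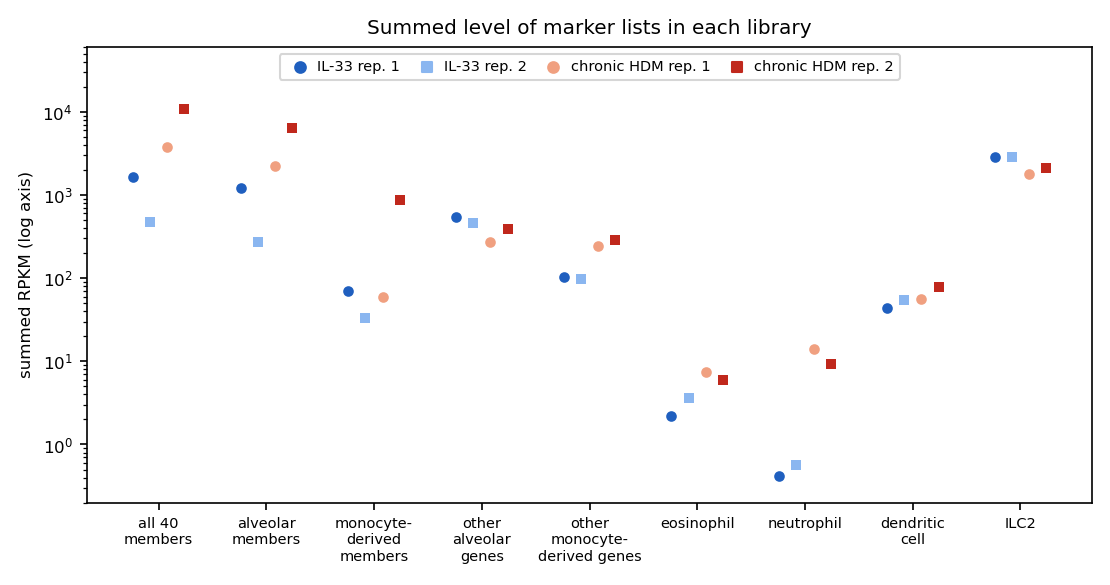
Summed RPKM of marker lists in each library on a log axis (blue, IL-33; red, chronic HDM; circles, replicate 1; squares, replicate 2). The 40 macrophage genes run from 474 to 10866 RPKM over the 4 libraries and the ILC2 list from 1791 to 2866 RPKM. The ILC2 sum combines genes that differed in opposite directions between the groups.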

How the data were processed

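RNA of sorted BAL fluid ILC2s was measured in 2 IL-33 and 2 chronic HDM libraries. The authors used Smart-seq2 and single reads of 51 bases. Alignment to mm10 was with HISAT2, for which the submitters' processing notes give version 2.0.4. The deposited values are RPKM, which HOMER counted over the exons of a RefSeq transcript and scaled to the number of mapped reads. The counting strand is not given in the sources used here, and molecular identifiers were not used. Windows of 51 bases shared with GENCODE M21 transcripts of other genes mark reads that cannot be assigned.

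The deposited RPKM values were used unchanged. Multiplied by exon length they gave whole reads within 0.1 for 99.8 to 100.0% of low values, which set the depth. The 9523 genes whose mean reached 2 RPKM were tested on log2(RPKM + 1) with limma 3.58.1 in R 4.3.3 (trend, two-sided, Benjamini-Hochberg). The thresholds are those of the study, whose own test, DESeq2 on counts, was not run. A fold change on this scale understates the change of low genes. A bound against no reads uses 3 reads per library. Members and lists, and the tests, were chosen with earlier results of these data known. All members are given. Of the other lists, genes were to be named where called and otherwise the 2 of highest mean, and some lists are given by their sums or by their leading gene for brevity. The procedure was tested on simulated data. Alternatives covered the pseudocount, minimum, scaling, trend, limma-voom on recovered reads, a replicate block and leaving out each library.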

Additional observations from a re-analysis of the deposited data

How the results depend on the processing

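With 2 libraries per group the number of genes called was unstable, and so was the number of members called. As reported, 318 genes and 0 members were called. The number of genes was 0 with a pseudocount of 0.1, 0 without the minimum, 0 without the trend, 125 with median-of-ratios scaling, 126 with scaling without 45S ribosomal RNA and 13 with limma-voom, and 0 to 2470 when each library was left out. Of the genes called, the share higher in chronic HDM was 16% as reported. It was 44.6%, 32.0% and 31.0% with quantile normalization, median-of-ratios scaling and scaling without 45S. These scalings moved the median of all genes from −0.28 to 0.00, −0.07 and −0.08. The number of members called was 1 (*Lyz2*) with a pseudocount of 2 or quantile normalization, and 0 to 13 when each library was left out. The median of the members stayed between 1.33 and 3.12, and the log2 ratio of their summed RPKM, 2.86 as reported, between 1.96 and 3.76.

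Replicate numbers did not pair the libraries: deviations of libraries with the same number correlated at −0.038 over 9523 genes. With the number as a replicate block, 1254 genes and 10 members were called. Of 364 values (28 members under 13 alternatives), 317 kept direction and side of the threshold, 31 passed it and 16 changed sign, all in *Apoe*, *Ccl9*, *Cd68*, *Lpl*, *Mrc1* and *Retnla*. With a pseudocount of 0.1 the log2 fold changes were −0.47 (*Ccl9*), −0.40 (*Lpl*) and −0.07 (*Retnla*), and with limma-voom −1.43, −2.43 and −0.71, and −0.02 for *Mrc1*. When each library was left out in turn, the values ran from −0.94 to 5.03 (*Apoe*), −1.87 to 2.97 (*Ccl9*), −0.51 to 2.50 (*Cd68*), −1.48 to 2.56 (*Lpl*), −0.50 to 2.81 (*Mrc1*) and −1.64 to 3.24 (*Retnla*), lowest without HDM replicate 2 and highest without HDM replicate 1. Without IL-33 replicate 2, *Ccl9* (−0.14), *Lpl* (−0.29) and *Retnla* (−0.32) were below 0 too. The cause was not tested.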

Other observations

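Genes outside the list of 40 also differed within the IL-33 pair, and further myeloid genes were among them. Of the 21 genes at least 4-fold higher in IL-33 replicate 1 than in replicate 2 on RPKM + 1, 6 were members, 3 were small nucleolar RNAs and 12 were others: *Rnase2a*, *Ccl17*, *Cd36*, *Wfdc17*, *F7*, *Maob*, *Wfdc21*, *Tbxas1*, *Ms4a8a*, *Ear12*, *Ear3* and *Timp1*. *Ear12* and *Ear3* have the same position inside *Ear2*, so the 3 count the same reads. Of the 12 others, *Cd36*, *Wfdc17* and *Tbxas1* were also at least 4-fold higher in HDM replicate 2 than in replicate 1. Higher in HDM replicate 1 were instead *Maob* (14.9 and 0.136 RPKM in HDM replicates 1 and 2), *Timp1* (7.73 and 0 RPKM), *Ms4a8a*, *Ear12* and *Ear3*. *Cd36*, a scavenger receptor for lipids, was at 6.12 and 0.378 RPKM after IL-33 and at 0.246 and 29.7 RPKM after chronic HDM. *Wfdc17*, a small secreted protein, was at 27.6, 4.58, 5.48 and 262 RPKM in the same order.

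The 12 genes outside all lists with the largest excess of HDM replicate 2 over replicate 1 were chosen by that difference, which is a description. They were *Rbp4*, *Gzma*, *Yif1a*, *Wfdc17*, *Bpifa1*, *Rps6ka4*, *Akip1*, *Ms4a6d*, *Cd36*, *Skap2*, *Gngt2* and *Hmgn1*. *Bpifa1*, a secreted protein of the airway epithelium, was at 2.31 and 1.79 RPKM after IL-33, had no reads in HDM replicate 1 and stood at 30.4 RPKM in HDM replicate 2. *Gzma*, a granzyme of cytotoxic lymphocytes, was at 9.91, 18.6, 0 and 62.0 RPKM. *Atp6v0d2*, a proton pump subunit and a gene of the other alveolar list, showed the same gap, at 10.6, 2.22, 0 and 55.0 RPKM. Genes well read after IL-33 were also missing from HDM replicate 1: *Akip1* was at 74.5 and 65.2 RPKM after IL-33, at 0 in HDM replicate 1 and at 27.0 RPKM in HDM replicate 2, and *Skap2*, an adaptor of lymphoid and myeloid cells, was at 46.3, 35.5, 0 and 23.2 RPKM. What part such missing reads had in the differences between the HDM libraries was not tested.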
